A study of Rattus norvegicus with 3 samples.

Results

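The integrated stress response genes described here are 10 rat genes, *Atf4*, *Asns*, *Ddit3*, *Trib3*, *Chac1*, *Ddit4*, *Sesn2*, *Xbp1*, *Herpud1* and *Calr*, out of 15037 named genes on the array. They were chosen by gene symbol, and all 10 were present with a single feature each. The choice was made with values of these arrays known, above all the values of *Atf4* and *Asns*, so the levels and differences below are descriptions without a test. The platelets came from inbred F344 rats and were measured in 3 groups: platelets loaded outside the body with sorafenib, platelets loaded with lenvatinib, and control platelets. Each drug, an inhibitor of several kinases, was applied at 10 µg for 30 minutes at 37 °C, and the platelets were then washed. The labels call these platelets drug-encapsulated. Whether the control platelets went through the same incubation and wash is not stated in the labels. Each group was the pooled platelet suspension of 5 rats on 1 array, so no spread between replicates exists and no p-value was computed.

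The integrated stress response is the common reaction of cells to amino acid shortage, misfolded protein in the endoplasmic reticulum (ER), viral RNA and heme shortage. Each of these activates a kinase that phosphorylates the translation factor eIF2, which slows protein synthesis as a whole but favours translation of ATF4, a transcription factor that then induces genes of amino acid supply, redox balance and cell death. The unfolded protein response shares one of these kinases and adds a branch through XBP1 and ATF6, which induce chaperones and degradation factors of the ER. Platelets have no nucleus, and their messenger RNA comes from the megakaryocyte that released them. An array of this kind measures transcript signal and reports neither eIF2 phosphorylation nor ATF4 protein nor the splicing of *Xbp1*.

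In cells with a nucleus, the pathway is known to act at promoters of its target genes. The promoter windows of the 10 genes were therefore searched for its DNA elements before the array values are given. RefSeq promoter sequences of build GRCr8, each 250 bases before to 50 bases after the start site, were matched for all 10 genes, and 5 of the 10 held at least 1 match. The core of the C/EBP-ATF response element, through which ATF4 acts, was searched on both strands as TGATGNAA. It was present in 3 of the 10 windows and in 3.98% of all 33469 promoters. The ER stress response element, the binding site of ATF6 and XBP1, was searched on both strands as CCAAT and CCACG with 9 bases between them. It was present in 2 of the 10 windows and in 0.0657% of all promoters. The ER stress response element II was searched as ATTGG and CCACG with 1 base between them, and was present in 1 of the 10 windows and in 0.0508% of all promoters. A further core, TGACGTG, was present in 1.81% of all promoters and in 0 of the 10. No 2 matches in a window overlapped. A match is a description of these letters and shows neither binding nor activity. It describes the genome, not the platelets, and was not linked to any difference between the arrays.

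The windows with a match are given 5′ to 3′ on the strand of the gene, with the match in capitals. *Trib3* and *Chac1* carry the C/EBP-ATF core, read on the opposite strand. *Xbp1* carries the ER stress response element on the strand of the gene, and *Calr* carries it on the opposite strand. *Herpud1* carries a C/EBP-ATF core on the opposite strand and, downstream of it, the ER stress response element II on the strand of the gene.
Trib3, chr3:161275522-161275579, minus strand: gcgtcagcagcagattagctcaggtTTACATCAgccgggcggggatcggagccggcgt
Chac1, chr3:126795939-126795996, plus strand: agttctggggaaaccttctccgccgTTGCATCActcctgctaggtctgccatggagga
Herpud1, chr19:10614796-10614916, minus strand: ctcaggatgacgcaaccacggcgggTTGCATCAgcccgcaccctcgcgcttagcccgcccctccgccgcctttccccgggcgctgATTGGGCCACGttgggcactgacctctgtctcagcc
Xbp1, chr14:84604533-84604601, plus strand: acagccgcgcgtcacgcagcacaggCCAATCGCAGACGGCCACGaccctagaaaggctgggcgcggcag
Calr, chr19:40213117-40213178, plus strand: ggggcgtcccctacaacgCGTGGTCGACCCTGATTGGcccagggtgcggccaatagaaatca

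In *Trib3* the match lay at positions -21 to -14 from the start site, in *Chac1* at -167 to -160 and in *Xbp1* at -65 to -47. In *Calr* it lay at -232 to -214, and in *Herpud1* the C/EBP-ATF core lay at -184 to -177 and the ER stress response element II at -124 to -114. The other 5 windows, those of *Atf4*, *Asns*, *Ddit3*, *Ddit4* and *Sesn2*, held none of these motifs. An element outside the window, or at another start site, would not be found, so these genes are not shown to lack one.

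Signals are the log2 values the authors deposited, and differences are log2 signal of one array minus another, so that 1 is 2-fold. Background was taken as 7.69, the 95th percentile over 1153 negative control features. At or above it lay 5 of the 10 genes, *Atf4*, *Asns*, *Ddit3*, *Xbp1* and *Calr*, on each of the 3 arrays. By their mean over the arrays, 13.0% of all named genes reached it. The other 5, *Trib3*, *Chac1*, *Ddit4*, *Sesn2* and *Herpud1*, lay below it on each array, and their readings cannot be told from background. The arrays carried strong platelet signal: 9 of 10 measured platelet markers lay at or above background, and *Clec1b* and *Nrgn* stood at the scale's ceiling of 19.93 on every array. Of the markers of other blood cells, 8 of 13 erythroid, 2 of 10 monocyte, 1 of 12 neutrophil, 1 of 6 B cell and 0 of 12 T cell genes lay at or above background.

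**Figure D1:**
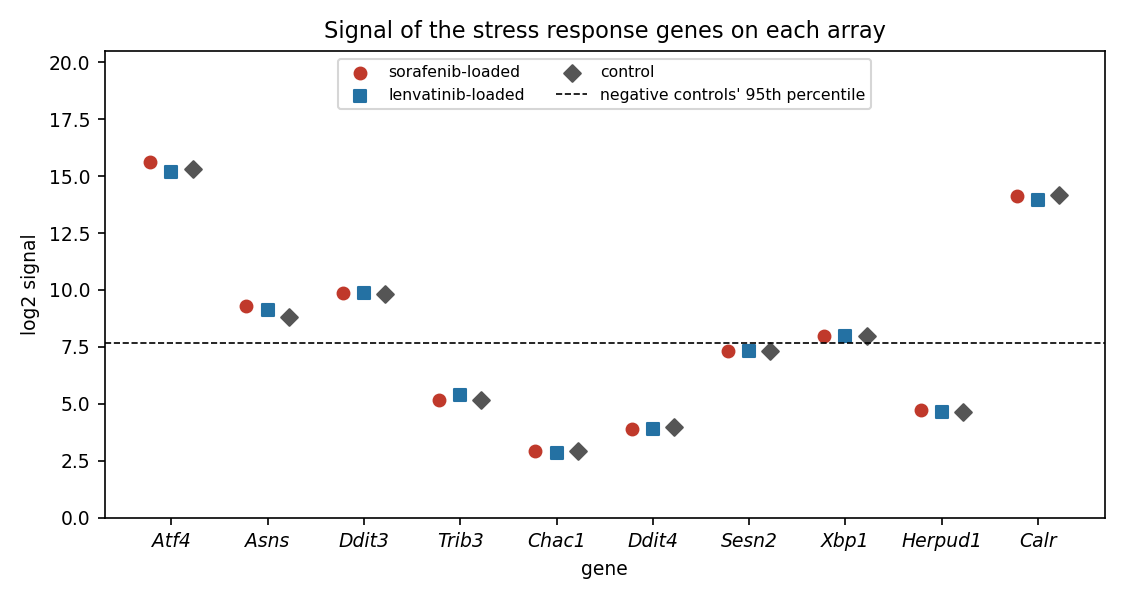
Log2 signal (vertical axis) of the 10 genes on the sorafenib, lenvatinib and control arrays, 1 point per array, with the negative controls' 95th percentile of 7.69 as a dashed line. *Atf4*, *Asns*, *Ddit3*, *Xbp1* and *Calr* lie above the line on every array, the other 5 genes lie below it, and the widest spread within a gene is that of *Asns*, at 9.29 with sorafenib and 8.83 in control platelets.

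*Atf4* encodes the transcription factor at the centre of the response. Its signal was 15.61 in sorafenib-loaded platelets, 15.18 in lenvatinib-loaded platelets and 15.29 in control platelets. The sorafenib array was thus highest and the lenvatinib array lowest. Sorafenib minus control was 0.31, a ratio of 1.24, and lenvatinib minus control was -0.11, a ratio of 0.925. Among the 1961 genes at or above background, 159 stood as far or further above control with sorafenib, or 8.11%, and 473 as far or further below control with lenvatinib, or 24.1%. The order with sorafenib above and lenvatinib below control was shared by 8.57% of those genes.

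*Asns* encodes asparagine synthetase, which makes asparagine from aspartate and is a classic target of ATF4 under amino acid shortage. It read 9.29 with sorafenib, 9.13 with lenvatinib and 8.83 in control platelets, so that both drug arrays lay above control. Of the genes at or above background, 27.6% did likewise. Sorafenib minus control was 0.46, a ratio of 1.38, the largest difference from control among the 10 genes, and 70 of the 1961 genes, or 3.57%, were as high or higher. Lenvatinib minus control was 0.31, a ratio of 1.24, which 221 genes, or 11.3%, reached. Both differences share the control array, so one high or low control value would appear in both.

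*Ddit3* encodes CHOP, the transcription factor that ATF4 induces and that promotes cell death under lasting ER stress. It read 9.86 with sorafenib, 9.86 with lenvatinib and 9.83 in control platelets. The 2 drug arrays held exactly the same value, 0.03 above control. Many features of this table have equal values on several arrays: the 3 arrays were equal for 17.3% of all named genes and for 11.5% of those at or above background. An equal value therefore does not show that the transcript was at the same level.

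*Trib3*, *Chac1*, *Ddit4* and *Sesn2* are further genes that ATF4 is known to induce, and each of them lay below background. *Trib3*, a pseudokinase that restrains AKT and ATF4 itself, read 5.15 with sorafenib, 5.38 with lenvatinib and 5.15 in control platelets, so that lenvatinib minus control was 0.23 and the sorafenib array equalled control. *Chac1*, an enzyme that degrades glutathione, read 2.94 with sorafenib, 2.85 with lenvatinib and 2.94 in control platelets. The lenvatinib array was again the one that differed, this time lower, by -0.09 on the log2 scale. *Ddit4*, an inhibitor of the growth kinase complex TORC1 also called REDD1, read 3.88 with sorafenib, 3.88 with lenvatinib and 3.996 in control platelets, a difference of -0.12 for each drug. *Sesn2*, sestrin 2, which senses leucine and restrains TORC1, read 7.32 on each of the 3 arrays. No common direction is seen over these 4 genes.

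The 3 genes of the ER branch were *Xbp1*, *Herpud1* and *Calr*. *Xbp1*, the transcription factor whose messenger RNA is spliced by the ER stress sensor IRE1, read 7.998 on each of the 3 arrays, just above background. *Herpud1*, a membrane protein of ER-associated degradation, lay below background at 4.73 with sorafenib, 4.67 with lenvatinib and 4.67 in control platelets. *Calr*, calreticulin, a calcium-binding chaperone of the ER, read 14.14 with sorafenib, 13.95 with lenvatinib and 14.16 in control platelets. Sorafenib minus control was -0.01 for *Calr*, and with quantile normalization the 2 arrays were equal. Lenvatinib minus control was -0.21, a ratio of 0.864, and 305 of the 1961 genes at or above background, or 15.6%, were as low or lower. *Calr* and *Atf4* were thus both lowest on the lenvatinib array, whereas *Asns* was lowest on the control array.

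**Figure D2:**
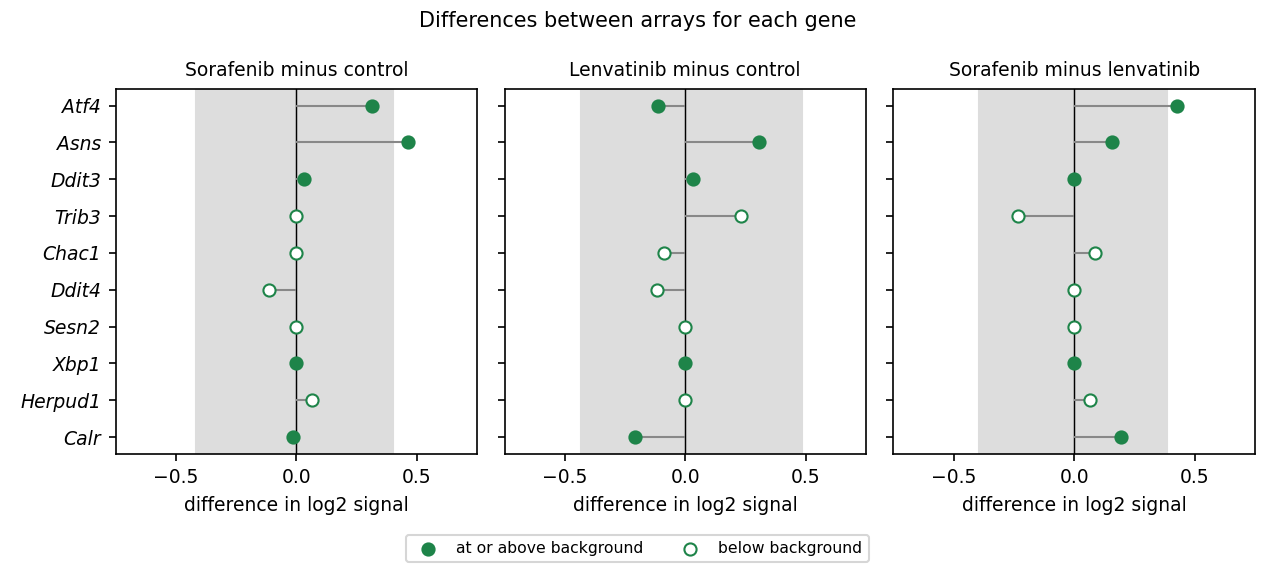
Difference in log2 signal (horizontal axes) for each gene, with sorafenib minus control on the left, lenvatinib minus control in the middle and sorafenib minus lenvatinib on the right, and with filled points for genes at or above background and open points for genes below it. Grey bands span the 5th to the 95th percentile of the 1961 genes at or above background, and of the 30 points only *Asns* in sorafenib minus control and *Atf4* in sorafenib minus lenvatinib lie outside them.

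Over the 10 genes, 0 were at least 2-fold apart in sorafenib minus control, where 0.512% of all named genes were. Likewise 0 of 10 were 2-fold apart in lenvatinib minus control, against 0.539% of all named genes. At 1.5-fold the count was also 0 of 10 in each, against 4.43% and 5.05% of all named genes. In sorafenib minus control, 4 of the 10 were higher, 2 lower and 4 tied, beside 34.9% higher, 34.5% lower and 30.5% tied over all named genes. In lenvatinib minus control, 3 were higher, 4 lower and 3 tied, beside 35.4%, 35.1% and 29.5%. The median difference was 0 in both, as it was over all named genes. The central 90% of genes at or above background ran from -0.42 to 0.40 in sorafenib minus control and from -0.43 to 0.49 in lenvatinib minus control. *Asns* with sorafenib, at 0.46, lay outside this range, and the other 9 genes lay inside it in both comparisons.

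Sorafenib- and lenvatinib-loaded platelets were then set against each other. The loading protocol, recorded with the lenvatinib sample, names one mass and one loading time for either drug. The signal of *Atf4* was higher with sorafenib by 0.43, a ratio of 1.34, and 81 of the 1961 genes at or above background, or 4.13%, were as high or higher. The central 90% of those genes ran from -0.39 to 0.38. *Calr* was higher with sorafenib by 0.20, a ratio of 1.15, which 13.1% of those genes reached, and *Asns* by 0.16, which 15.8% reached. *Ddit3* and *Xbp1* were tied. Of the genes below background, *Chac1* was higher with sorafenib by 0.09 and *Herpud1* by 0.07, *Trib3* was lower at -0.23, and *Ddit4* and *Sesn2* were tied. In all, 5 of the 10 were higher, 1 lower and 4 tied, beside 33.4%, 34.6% and 32.1% of all named genes. The median was 0.03, against 0 over all named genes, and 0 of the 10 were 2-fold apart, against 0.299% of all named genes, and 0 were 1.5-fold apart, against 3.89%.

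Levels of red-cell transcripts also differed between the drug arrays. Of 13 measured erythroid markers, 1 was higher with sorafenib than with lenvatinib, 9 lower and 3 tied, with a median of -0.12. Over all named genes the shares were 33.4%, 34.6% and 32.1%. Among the 8 markers at or above background, 0 were higher, 6 lower and 2 tied, beside 34.4%, 42.8% and 22.8% of all genes at that level. Against control, 4 of the 13 were higher, 4 lower and 5 tied with sorafenib, at a median of 0. All named genes gave 34.9%, 34.5% and 30.5%. With lenvatinib 9 were higher, 1 lower and 3 tied, at a median of 0.16, beside 35.4%, 35.1% and 29.5%. Named after its values were seen, *Slc4a1*, the red-cell anion exchanger, read 8.23 with sorafenib, 8.78 with lenvatinib and 7.93 in control platelets. The log2 of the summed signal of these markers was 20.54 with sorafenib, 20.59 with lenvatinib and 20.56 in control platelets. *Hba-a1*, alpha globin, was at the ceiling on every array and makes up much of that sum. For the platelet markers that sum was 22.44 with sorafenib, 22.43 with lenvatinib and 22.43 in control platelets. Of the 10 measured platelet markers, 3 were at the ceiling on every array. These limit how far that sum can differ, so its near-equality does not show equal platelet RNA. The monocyte markers gave 15.39 with sorafenib, 15.36 with lenvatinib and 15.15 in control platelets, a pattern set by *Lyz2*, lysozyme, at 15.37, 15.34 and 15.13 on the same arrays. The neutrophil gene *S100a9* read 7.97 with sorafenib, 7.88 with lenvatinib and 8.37 in control platelets, lower on both drug arrays. *S100a8*, a neutrophil gene below background, went the other way at 6.46, 6.46 and 5.93. Of 12 measured neutrophil markers, 6 were higher, 5 lower and 1 tied with sorafenib against control. With lenvatinib 5 were higher, 6 lower and 1 tied. *Cd74*, a gene of antigen-presenting cells whose mean lay just below background, read 7.97, 7.95 and 7.04, higher on both. The part of other blood cells in the values of *Atf4*, *Asns* and *Calr* was not tested, and fewer cells of a type cannot be told apart from less RNA per cell.

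**Figure D3:**
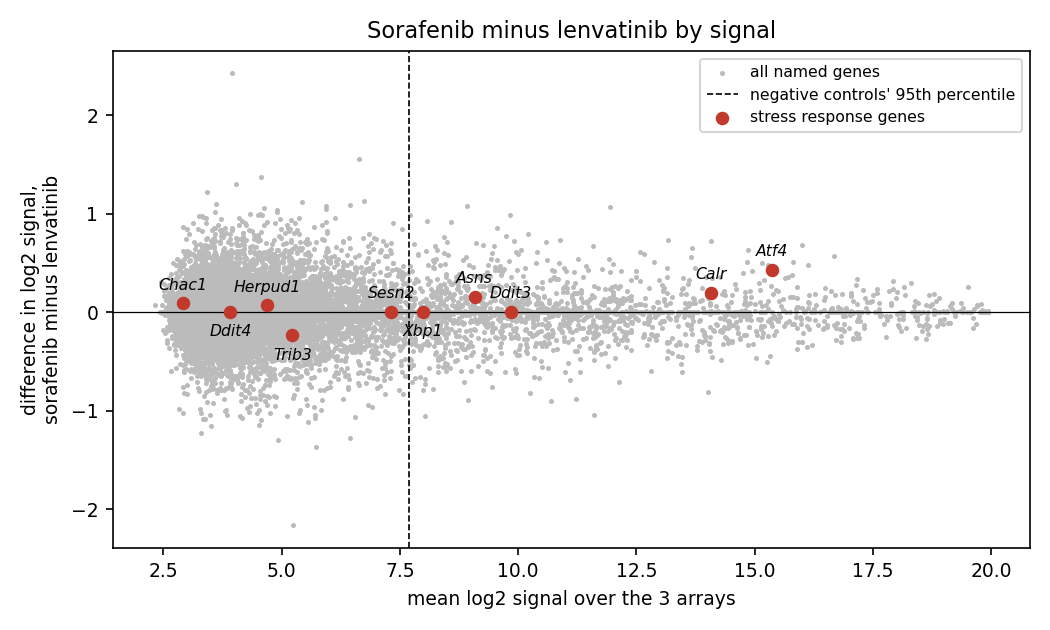
Sorafenib minus lenvatinib difference in log2 signal (vertical axis) against mean log2 signal over the 3 arrays (horizontal axis), with all 15037 named genes in grey and the 10 stress response genes in red. *Atf4*, at 0.43, and *Calr*, at 0.20, lie above 0 at high signal, *Trib3*, at -0.23, lies below 0 left of the dashed background line, and most of the other genes lie near 0.

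*Atf4* was also set beside the 183 genes whose mean signal lay within 1 log2 unit of its own. The SD of their differences was 0.18 for sorafenib minus control, 0.26 for lenvatinib minus control and 0.20 between the drugs. Their 95th percentile was 0.32 in sorafenib minus control, just above the 0.31 of *Atf4*, and 0.39 in sorafenib minus lenvatinib, below its 0.43. For *Asns* the 662 genes within the same distance had an SD of 0.26 and a 95th percentile of 0.46 in sorafenib minus control, level with *Asns* itself at 0.46. These are spreads over genes and not errors of measurement. Over the 1153 negative control features the SD was wider, at 0.82 for sorafenib minus control, 0.84 for lenvatinib minus control and 0.83 between the drugs. The median signal of those features was 4.13, far below that of *Atf4* and *Asns*. *Ddit4*, at a mean of 3.92, had 9075 named genes within 1 log2 unit. Their SD was 0.25 for sorafenib minus control, 0.25 for lenvatinib minus control and 0.23 between the drugs. Named genes at such low signal thus did not show the wider spread of the negative controls, and the source of that spread was not tested.

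The genes whose pattern over the 3 arrays lay nearest to that of *Atf4*, by Euclidean distance in the 2 drug differences among genes at or above background, were *Selenot*, *Il15* and *Psmd6*. *Selenot*, a selenoprotein of the ER, read 12.19 with sorafenib, 11.78 with lenvatinib and 11.90 in control platelets. *Il15*, the cytokine interleukin 15, read 10.41, 9.97 and 10.07 in the same order of arrays, and *Psmd6*, a proteasome subunit, read 9.86, 9.49 and 9.58. Their distances were 0.03, 0.03 and 0.04, and 7 of 1941 genes lay within 0.1, after leaving out *Atf4* itself, genes at the ceiling and names that are only locus numbers. With 3 arrays any such likeness is loose.

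The factors upstream of ATF4 were examined next, as a list of 18 genes for eIF2, its kinases, its exchange factor eIF2B and its phosphatase, all measured, 4 of them at or above background. With sorafenib 3 exceeded control, 9 lay below it and 6 were tied, beside 34.9%, 34.5% and 30.5% of all named genes. The median was -0.005. With lenvatinib 6 exceeded control, 8 lay below it and 4 were tied, beside 35.4%, 35.1% and 29.5%, and the median was 0. These shares of all named genes also stand beside the counts against control in the lists below. The kinases lay below background. *Eif2ak1*, the heme-regulated kinase HRI, read 6.40 with sorafenib, 6.40 with lenvatinib and 6.13 in control platelets. *Eif2ak4*, the amino acid sensor GCN2, read 3.35, 3.42 and 4.12 on those arrays, so that both drug arrays were lower. *Eif2ak2*, the RNA-activated kinase PKR, was at -0.10 with sorafenib and -0.43 with lenvatinib against control, and *Eif2ak3*, the ER kinase PERK, at 0 and 0.15.

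*Eif2s1*, the eIF2 subunit that the kinases phosphorylate, was the only gene of that list 2-fold apart in any comparison. It read 5.69 with sorafenib, 4.57 with lenvatinib and 6.05 in control platelets, below background on each array. Lenvatinib minus control was -1.48, and sorafenib minus lenvatinib was 1.12. The other eIF2 subunits lay above background. *Eif2s2* read 8.65 with sorafenib, 8.74 with lenvatinib and 8.65 in control platelets, and *Eif2s3* read 8.35, 8.29 and 8.12 on those arrays. *Ppp1r15b*, a subunit that directs the phosphatase to eIF2, read 9.33 with sorafenib, 9.14 with lenvatinib and 9.33 in control platelets, and *Dnajc3*, an ER cochaperone that inhibits PERK, read 12.92, 13.09 and 13.09.

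Further genes under ATF4 went both ways against control, with more of them lower than higher for each drug. Of 33 measured partners and targets, 9 were higher with sorafenib, 16 lower and 8 tied. With lenvatinib 8 were higher, 15 lower and 10 tied, and both medians were 0. Among the 10 at or above background, 1 was higher, 5 lower and 4 tied with sorafenib, beside 39.8%, 38.9% and 21.3% of all genes at that level. With lenvatinib 4 of these 10 were higher, 3 lower and 3 tied, beside 41.2%, 39.2% and 19.6%. Their differences from control were widest for *Slc7a5*, the light chain of a large neutral amino acid transporter. It read 12.86 with sorafenib, 13.08 with lenvatinib and 12.48 in control platelets, a difference of 0.38 for sorafenib and 0.60 for lenvatinib. *Slc7a11*, the cystine transporter, read 8.20 with sorafenib, 8.76 with lenvatinib and 8.25 in control platelets, so that the lenvatinib array stood apart. *Sqstm1*, the autophagy receptor p62, read 10.07 with sorafenib, 9.64 with lenvatinib and 10.20 in control platelets, lower with lenvatinib by -0.56. *Gpt2*, a mitochondrial alanine transaminase, read 7.79, 8.15 and 7.93. Sorafenib minus lenvatinib was -0.23 for *Slc7a5*, -0.56 for *Slc7a11* and -0.36 for *Gpt2*, the opposite order to that of *Atf4* and *Asns*. For *Sqstm1* it was 0.43, the same order as *Atf4*. Over the 33 genes of the list, 12 were higher, 12 lower and 9 tied in this comparison, with a median of 0. All named genes gave 33.4%, 34.6% and 32.1%.

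Aminoacyl-tRNA synthetases, several of which ATF4 induces, lay below background in 13 of 13 measured genes. Only 13.0% of all named genes lay at or above it. With sorafenib 6 exceeded control, 5 lay below it and 2 were tied, and with lenvatinib these counts were 6, 3 and 4. Their median was 0 against control for each drug and -0.03 in sorafenib minus lenvatinib. The 9 measured ER stress sensors also lay below background, with 0 higher, 3 lower and 6 tied with sorafenib and 2, 4 and 3 with lenvatinib.

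ER chaperones other than *Calr* were measured for 20 genes, 6 of them at or above background. With sorafenib 8 were higher and 6 lower, and with lenvatinib 7 were higher and 7 lower. Ties made up the other 6 in each case, and both medians were 0. *Hspa5*, the ER chaperone BiP and the usual marker of ER stress, read 9.58 with sorafenib, 9.43 with lenvatinib and 9.36 in control platelets. *P4hb*, protein disulfide isomerase, read 11.29, 11.31 and 10.91 on those arrays, higher by 0.38 with sorafenib and 0.40 with lenvatinib. *Canx*, calnexin, the membrane-bound relative of calreticulin, read 14.21 with sorafenib, 14.46 with lenvatinib and 14.46 in control platelets. *Canx* was thus lowest on the sorafenib array, where *Calr* was lowest on the lenvatinib array. *Ppib*, cyclophilin B, read 13.28 with sorafenib, 13.09 with lenvatinib and 13.06 in control platelets. The sole 2-fold difference was that of *Txndc5*, a disulfide isomerase, named after its values were seen, at 6.25 with sorafenib, 6.28 with lenvatinib and 5.25 in control platelets, below background on each array.

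Of 19 measured genes of ER-associated degradation, 9 lay at or above background. With sorafenib 6 exceeded control, 8 lay below it and 5 were tied, and the median was 0. With lenvatinib these counts were 6, 10 and 3, and the median was -0.01. *Ube2j1*, an ER-bound ubiquitin-conjugating enzyme, read 10.76 with sorafenib, 10.45 with lenvatinib and 10.31 in control platelets, higher by 0.44 and 0.14. *Selenok*, a selenoprotein of the ER membrane, was higher by 0.25 and 0.10, *Os9*, a lectin that selects misfolded glycoproteins, was at -0.28 and -0.17, and *Vcp*, the ATPase that extracts proteins from the membrane, was at 0 and 0.27. Of 20 measured genes of TORC1 and amino acid sensing, the pathway that *Ddit4* and *Sesn2* restrain, 3 lay at or above background. In that list 4 were higher, 8 lower and 8 tied with sorafenib, 7 were higher, 4 lower and 9 tied with lenvatinib, and both medians were 0. *Rptor*, the TORC1 scaffold raptor, read 10.55 with sorafenib, 10.77 with lenvatinib and 10.55 in control platelets. *Rheb*, the GTPase that activates TORC1, read 10.77, 10.77 and 10.86, and *Txnip*, an arrestin that binds thioredoxin, read 7.93 on each array.

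**Figure D4:**
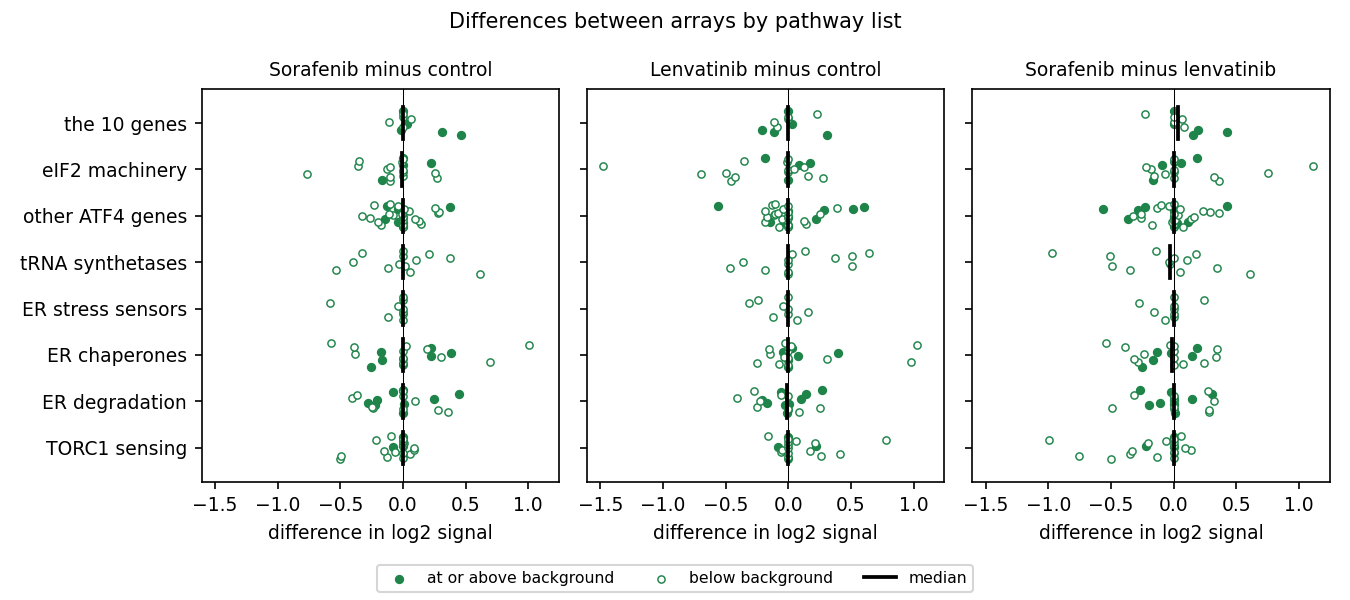
Difference in log2 signal (horizontal axes) for the measured genes of 8 lists in the 3 comparisons, 1 point per gene, filled for genes at or above background, with a black bar at each list's median. The medians lie between -0.03 and 0.03, and the points furthest out are open, among them *Eif2s1* at -1.48 in lenvatinib minus control.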

How the data were processed

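The values used are log2 signals that the authors deposited for 23188 features on 3 arrays, 1 per pooled group. Per the labels' protocols, RNA came from a column kit and was labelled with biotin and phycoerythrin. How the authors corrected background, summarised probes and normalized the arrays is not given in those sources. A second table of the series, also deposited as log2 signal, adds control features and differed from the matrix by at most 0.00005. Symbols came from the platform annotation for 15049 features, of which the highest-mean feature per gene was kept. No transcript coordinates are given because the array's genome build is not stated. List genes that no named feature matched were not analysed here.

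Differences were computed with pandas 2.3.3 and no test was run, since each group has 1 array. The 10 genes, the 7 pathway lists, the marker lists and the motifs were chosen with earlier results of these data known. The genes named from a pathway list are up to 4 at or above background with the largest difference, plus *Eif2s1*, *Hspa5* and the eIF2 kinases, and from a marker list up to 2 with the highest mean. Signals of different features are not compared with each other. A value is called tied within 5e-06. Simulated arrays of 15037 genes were made by exchanging the deposited values among arrays within each gene. In sorafenib minus control, 97% of genes raised by 1.5 and 100% of those raised by 2 log2 units were recovered as 2-fold higher. Of the other genes, 0.276% were called. Both raises are far larger than any difference of the 10 genes, so this recovery does not bear on differences of their size. Alternatives were median centring, quantile and cyclic loess normalization (limma 3.58.1), the mean of all features, the second table, other thresholds, filters on signal, and list means.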

Additional observations from a re-analysis of the deposited data

Results flagged for a closer look

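For 8 of the genes named in this text the sorafenib and lenvatinib arrays lay on opposite sides of the control array. With 1 array each this difference was not tested. Sorafenib above and lenvatinib below control was the order of 6.47% of all 15037 named genes and 8.57% of those at or above background. The share with the reverse order was not computed. *Atf4* was at 0.31 in sorafenib minus control and -0.11 in lenvatinib minus control. *Selenot*, at 0.29 and -0.12, *Il15*, at 0.34 and -0.10, and *Psmd6*, at 0.28 and -0.0919, were named for their likeness to *Atf4*, which fixes this order for them. *Slc7a11*, the cystine transporter, was at -0.0417 with sorafenib and 0.52 with lenvatinib, and *Gpt2*, the alanine transaminase, at -0.14 and 0.22. The beta globin gene *Hbb* was at -0.0692 with sorafenib and 0.0500 with lenvatinib. *Cd4*, a T cell marker whose signal lay below background, was at -0.0474 with sorafenib and 0.10 with lenvatinib.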

How the results depend on the processing

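With 1 array per group no replicate could be left out. No paired analysis was possible because each group has a single array. For each of the 10 genes and 3 comparisons, the difference moved by at most 0.06 under median centring, quantile and cyclic loess normalization, the mean of all features and the series value table. Some of these could hardly move it. Each of the 10 genes has 1 feature, the second table differs by at most 0.00005, and median centring shifts all genes by the same small amount. *Atf4* ranged from 0.27 to 0.32 in sorafenib minus control, from -0.17 to -0.11 in lenvatinib minus control and from 0.43 to 0.44 in sorafenib minus lenvatinib. The count of the 10 genes past the threshold was 0 at 1.5-fold, 2-fold and 3-fold. List medians moved by more than 0.1 as follows. Over the 5 of the 10 genes at or above background, the median in sorafenib minus lenvatinib was 0.16. With list means, the eIF2 list was at -0.18 and the ER chaperones at 0.11 in lenvatinib minus control, and the eIF2 list was at 0.11 and the TORC1 list at -0.16 in sorafenib minus lenvatinib. Without tied genes, a choice made after seeing the data, sorafenib minus control gave -0.12 for ER stress sensors, 0.10 for ER chaperones and -0.14 for ER-associated degradation. Lenvatinib minus control then gave 0.14 for tRNA synthetases and 0.17 for the TORC1 list, and sorafenib minus lenvatinib gave -0.11 for ER stress sensors and -0.21 for the TORC1 list. A filter at background left no gene of the tRNA synthetase and ER stress sensor lists. Signal limits the readings of the 5 genes below background.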
